A study of Rattus norvegicus with 4 samples.

Results

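The genes described here are 7 ligands of the EGF receptor family (Hbegf, Areg, Ereg, Nrg1, Tgfa, Btc and Egf) and 3 of its receptors (Egfr, Erbb2 and Erbb3), measured in NRK-52E cells, an epithelial line from rat kidney tubules, after exposure to hydrogen peroxide (H2O2). They were chosen by name, and a gene was taken through the probe whose RefSeq accession leads to its current rat symbol. All 10 had such a probe, among 8963 genes named in this way. The 4 groups are cultures of the same line in medium with 0 (control), 0.003, 0.006 or 0.009% H2O2, 1 array each. All of them, the control included, were grown in serum to confluence, exposed for 1 h, rinsed and held in serum-free medium for 12 h before total RNA was taken. The line was measured alone, so the cells that would receive a ligand in a kidney are not part of the data. The study asks which molecules of dying cells make the cells around them proliferate.

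The EGF receptor family consists of tyrosine kinases at the cell surface that pair when a ligand binds and pass the signal on to the RAS, RAF and ERK kinases and to PI3-kinase and AKT. Most of the ligands are made as membrane-bound precursors and are set free by metalloproteases of the ADAM family, so that the ligand gene's RNA, the cut and the receptor all bear on signalling. In the kidney tubule these ligands are known for driving the regrowth of epithelium after injury. Only RNA was measured here, and neither shed ligand nor receptor activity.

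Each array carried 43379 noncontrol spots, 51.8 to 54.9% of its probes passed the scanner's test for a signal well above background, and saturated spots numbered 0. Values are log2 signals relative to the 75th percentile of the array, and the 2-fold limit used below sorts differences by size without testing them. With 1 array a dose there is no spread between cultures: errors are the scanner software's spot errors, which cover the reading of a spot only. The arrays lay on 1 slide in the order of the doses, so an effect of the place on the slide and an effect of the dose cannot be told apart. Of the tubule epithelium markers, Krt8, Krt18, Hnf4a, Aqp1, Ggt1, Anpep and Slc5a2 were well above background on all 4 arrays, whereas Epcam, Pax8 and Slc34a1 were not on any. Of the markers of other cell types, Col1a2, Col3a1 and Pdgfrb (fibroblast), Kdr (endothelium) and Cd68 and Cd14 (macrophage) were also detected on all 4 arrays, whereas Dcn, Lum, Pecam1 and Itgam were not on any. The 3 detected fibroblast genes were all at least 2-fold lower than the control at 0.003 and 0.006% (median log2 difference -1.96 and -1.35). None was 2-fold lower at 0.009% (-0.70). Among all features 13.5, 10.5 and 7.52% were at least 2-fold lower at the 3 doses. Kdr was at 0.92, 1.20 and 1.59. At 0.009% all 3 fibroblast genes were 2-fold lower when scaled to the array median (median -1.26) or to the spike-in probes (-1.87). Of all 22810 features, 5176 and 11570 were 2-fold lower there with these scalings, with medians of -0.40 and -1.01. Kdr was at 0.30, 0.49 and 0.83 with normexp background correction, and at 0.41 at 0.009% with spike-in scaling. Cd68 was at 0.28, 0.79 and 0.88 and Cd14 at -0.71, -1.10 and -1.06. The tubule markers differed in both directions, from 2.22, 2.76 and 3.1 for Krt18 to -2.11, -1.85 and -1.33 for Aqp1. The part of these markers in the results below was not tested. In a bulk sample, fewer cells of a type and less RNA per cell cannot be told apart.

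Most of the detected ligands were higher than the control, and both detected receptors were lower. Hbegf, Areg, Ereg and Nrg1 were at least 2-fold higher than the control at all 3 doses, Egfr was at least 2-fold lower at all 3 and Erbb2 at 0.006 and 0.009%, while Tgfa was at least 2-fold lower at 0.009% alone. Btc and Erbb3 were not well above background on any array, and Egf was at the edge of detection. At 0.003% H2O2, 4 of the 8 genes compared were at least 2-fold higher and 1 lower, against 15.2% higher and 13.5% lower among all 22243 features. At 0.006% the counts were 4 and 2 of 8, against 15.0 and 10.5%. At 0.009% they were 4 and 3 of 8, against 16.5 and 7.52%. Ereg is 1 of the 4 higher genes at each dose. It was detected on the treated arrays alone, so it could be counted as higher but not as lower. The median difference of the 6 ligands compared (Ereg and Egf with a floored side where not detected) was 1.66, 1.76 and 1.11 over the 3 doses, that of the 2 receptors -0.80, -1.20 and -1.41, and that of all features 0.03, 0.08 and 0.16. The ligand median at 0.009% was 0.55 with array median scaling, 0.69 with normexp and -0.06 with spike-in scaling, and at 0.003 and 0.006% it was 0.98 and 1.06 with normexp. Neither receptor was 2-fold lower at 0.003% with normexp (median -0.71).

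**Figure D1:**
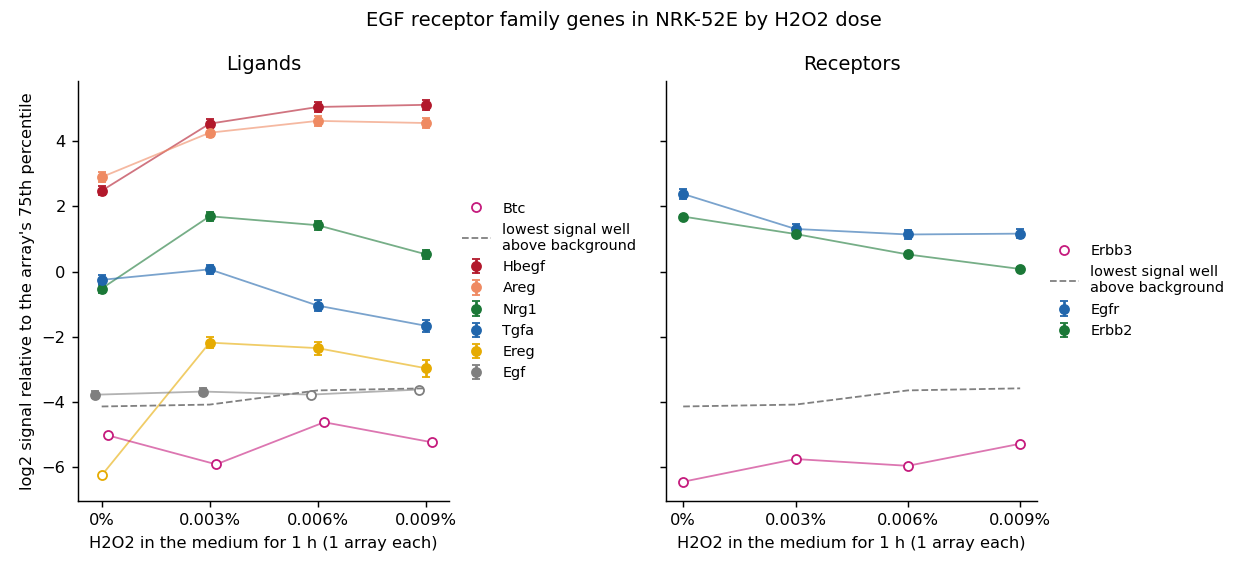
Log2 signal relative to the array's 75th percentile (vertical axis) for the 7 ligands (left) and 3 receptors (right) at each H2O2 dose (horizontal axis), 1 array a dose. Filled points are well above background and carry the spot error as bars, open points are not, and the dashed line is the lowest signal well above background on that array. Hbegf, Areg, Nrg1 and Ereg lie above their control values at all 3 doses and Egfr and Erbb2 below theirs. Levels of different genes come from different probes and are not comparable.

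Hbegf encodes heparin-binding EGF-like growth factor, a ligand of EGFR and ERBB4 that is cut from the cell surface and is strongly induced in injured tubules. Its log2 signal was 2.48 in the control and 4.54, 5.05 and 5.12 at 0.003, 0.006 and 0.009% H2O2. All 3 treated arrays were thus far above the control and close to each other. The differences from the control were 2.06, 2.57 and 2.63, each with a spot error of 0.20, and lay at the 97.3, 98.5 and 98.6 percentiles of all features. Between the treated arrays, the step from 0.003 to 0.006% was 0.51 ± 0.20 and that from 0.006 to 0.009% was 0.07 ± 0.20, within the spot error. With spike-in scaling the last step was -0.57 and the difference from the control at 0.009% was 1.46, so the order of the treated arrays depends on the scaling while their place above the control does not.

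Areg encodes amphiregulin, an EGFR ligand with a heparin-binding stretch. Its log2 signal was 2.90 in the control, 4.26 at 0.003%, 4.63 at 0.006% and 4.56 at 0.009%. The treated arrays again formed a group apart from the control. Areg was 2.57-fold, 3.30-fold and 3.16-fold higher at the 3 doses (log2 1.36, 1.72 and 1.66, spot error 0.20). The 2 higher doses differed by -0.07, less than the spot error, but by -0.70 when scaled to the spike-in probes and -0.32 when scaled to the array median. With spike-in scaling the difference from the control at 0.009% was 0.48.

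Ereg encodes epiregulin, which binds EGFR and ERBB4. Its signal was 2.37 in the control, below the lowest signal well above background of that array (10.2), and 37.0, 31.1 and 15.6 at the 3 doses. It was therefore measured on the 3 treated arrays only, and its differences from the control are bounds: at least 3.89-fold, 3.46-fold and 2.26-fold higher. A bound sets the treated value against the lowest signal well above background on the control array. Scaled to the 75th percentile, the 3 treated values were -2.18, -2.35 and -2.96, highest at the lowest dose, and the 0.009% array was 0.78 ± 0.32 below the 0.003% array. All of these signals were dim: with normexp background correction the differences from the control were 0.64, 0.57 and 0.64, and with spike-in scaling the bound at 0.009% was lost.

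Areg and Ereg are next to each other on rat chromosome 14. In the RefSeq gene order on GRCr8, the protein-coding genes Btc, Areg, Ereg and Epgn, all EGF family ligands, follow each other with no other protein-coding gene in between. Btc encodes betacellulin, a ligand of EGFR and ERBB4. Its signals of 5.54, 2.78, 6.43 and 3.22 at 0, 0.003, 0.006 and 0.009% were not well above background on any array, so no difference can be given. Epgn (epigen) had no named probe. Of the 3 neighbours with a probe, both Areg and Ereg were thus higher on every treated array than in the control, and Btc was not detected.

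The 250 bases before the start sites of Areg and Btc are shown because these neighbours differed in whether they were detected at all. They are from RefSeq on GRCr8, 5′ to 3′ on the gene's strand, at chr14:17265642-17265891 (minus strand) for Areg and chr14:16992418-16992667 (plus strand) for Btc, with matches to any of the motifs searched in capitals.
Areg: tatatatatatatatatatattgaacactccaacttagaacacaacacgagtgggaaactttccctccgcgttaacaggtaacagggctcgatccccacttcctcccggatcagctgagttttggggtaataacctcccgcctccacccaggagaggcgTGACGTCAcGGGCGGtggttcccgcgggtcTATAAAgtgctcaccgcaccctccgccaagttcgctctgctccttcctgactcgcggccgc
Btc: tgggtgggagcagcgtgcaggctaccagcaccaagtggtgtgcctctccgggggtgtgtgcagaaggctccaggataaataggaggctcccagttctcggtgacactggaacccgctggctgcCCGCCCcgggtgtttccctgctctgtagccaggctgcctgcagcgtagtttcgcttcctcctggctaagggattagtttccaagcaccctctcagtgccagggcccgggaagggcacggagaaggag

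Both strands of 33469 promoters of this length were searched for TGANTCA (the AP-1 site), TGACGTCA (the cyclic AMP response element), TGACG (the shorter form, also found inside TGACGTCA), GGGCGG (the GC box), TATAAA (the TATA box), TGACNNNGC (the antioxidant response element) and GAANNTTC (the core of the heat shock element). A sequence was listed for 7 of the 10 genes. The Areg window held TGACGTCA, 91 to 84 bases before the start, a GC box and TATAAA, 61 to 56 bases before the start. These motifs stand in 1.59, 30.5 and 12.9% of all promoters, and Areg alone of the 7 had the first and the last. Hbegf had TGACG, 193 to 189 bases before its start, a sequence found in 18.2% of promoters. None of the 7 held TGANTCA (6.34% of all promoters), TGACNNNGC (10.1%) or GAANNTTC (7.23%) in this window. A match describes the sequence and is not evidence of binding.

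Nrg1 encodes neuregulin 1, the ligand of ERBB3 and ERBB4. On the brighter of its probes, the log2 signal was -0.52 in the control, 1.70 at 0.003%, 1.42 at 0.006% and 0.53 at 0.009%. The lowest dose was the highest array, and each further dose was lower while staying above the control. Nrg1 was 4.65-fold, 3.84-fold and 2.07-fold higher than the control (log2 2.22, 1.94 and 1.05, spot error 0.21), and the 0.009% array was 1.17 ± 0.20 below the 0.003% array, at the 3.47 percentile of all features for that pair. Of the 7 members well above background on both arrays, 3 (Nrg1, Tgfa and Erbb2) were at least 2-fold lower at 0.009% than at 0.003%, against 5.5% of all features, and 0 were 2-fold higher, against 12.3%. With normexp Tgfa (-0.83) and Erbb2 (-0.85) did not pass 2-fold, Ereg did with array median (-1.20), quantile (-1.16) and spike-in (-1.77) values, and Egfr did with spike-in scaling (-1.13). The step of Nrg1 from 0.003 to 0.009% was also found with array median (-1.58), quantile (-1.12), spike-in (-2.15) and normexp (-1.07) values. Against the control, the 0.009% difference was -0.12 with spike-in scaling.

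The other Nrg1 probe was spotted 10 times on each array and gave the same order of doses. Its spots averaged 16.6 ± 2.0 (SD, n = 10 spots of 1 array) in the control, 106 ± 4.96 at 0.003%, 68.7 ± 4.57 at 0.006% and 20.0 ± 2.03 at 0.009%. The spots at 0.003 and 0.006% did not overlap with each other or with those of the other arrays before scaling, whereas those of the control (12.7 to 18.7) and of 0.009% (16.3 to 22.6) overlapped. After scaling, its log2 differences from the control were 2.79, 2.24 and 0.84, so the probes differ on whether 0.009% passes 2-fold. The spots repeat the reading of 1 RNA on 1 array and are not replicates of a dose.

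**Figure D2:**
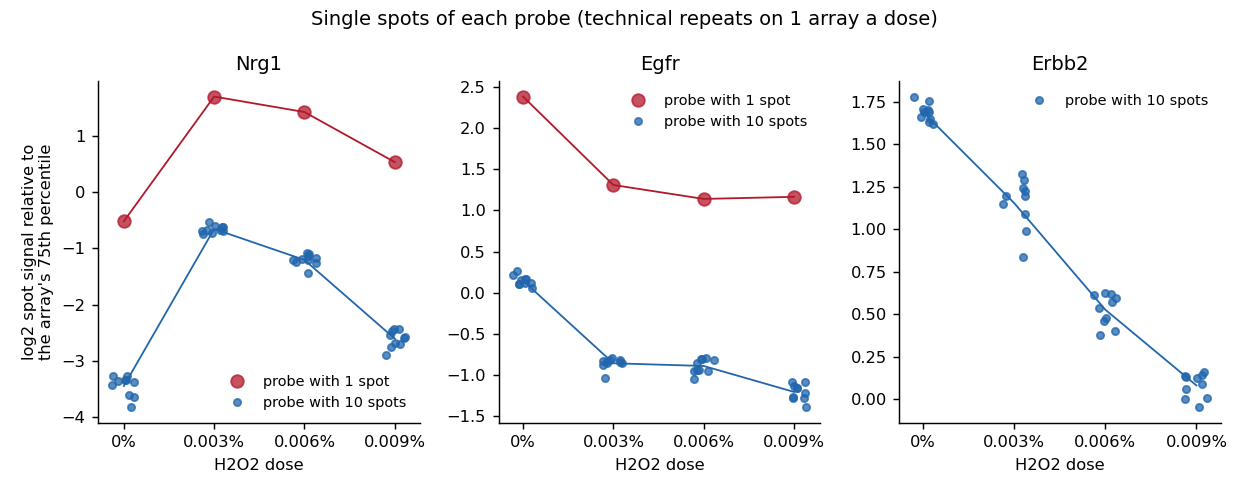
Log2 signal of each spot relative to the array's 75th percentile (vertical axis) by H2O2 dose (horizontal axis) for the probes of Nrg1, Egfr and Erbb2; each small point is 1 of 10 spots of a probe on 1 array, each large point the only spot of the other probe, and lines join the means. Both Nrg1 probes are highest at 0.003% and lower at 0.006 and 0.009%, both Egfr probes are lower on every treated array than in the control, and Erbb2 is lower at each further dose.

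Tgfa encodes transforming growth factor alpha, an EGFR ligand. Its log2 signal was -0.25 in the control, 0.07 at 0.003%, -1.04 at 0.006% and -1.66 at 0.009%. The control and the lowest dose were close, and the 2 higher doses were lower. The differences from the control were 0.32 ± 0.21, -0.79 ± 0.22 and -1.41 ± 0.23, the last 2.65-fold lower and at the 2.62 percentile of all features. Between the treated arrays, 0.006% was 1.11 ± 0.22 below 0.003%, a step at the 0.669 percentile of all features for that pair, of which 1.06% were at least 2-fold lower. With normexp the 0.009% difference from the control was -0.70 and the step from 0.003 to 0.006% was -0.63, both short of 2-fold.

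Egf encodes epidermal growth factor, whose main site in the body is the distal tubule. Its probe was spotted 10 times, and the spots averaged 13.3 ± 1.92 (SD, n = 10 spots of 1 array) in the control, 13.7 ± 3.44, 11.8 ± 2.27 and 10.0 ± 1.94 at the 3 doses. The spots of all 4 arrays overlapped. Of the 10 spots, 6 and 7 were well above background in the control and at 0.003%, and 1 and 2 at 0.006 and 0.009%. The difference at 0.003% was 0.10 ± 0.15, within the spot error, and none can be given for the other doses, where most spots were not well above background.

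Among the receptors, Egfr encodes the receptor for most of these ligands. On the brighter of its probes, the log2 signal was 2.38 in the control and 1.31, 1.14 and 1.17 at 0.003, 0.006 and 0.009% H2O2. All treated arrays were below the control. Egfr was 2.10-fold, 2.37-fold and 2.33-fold lower (log2 -1.07, -1.24 and -1.22, spot error 0.20 to 0.21). With normexp neither Egfr nor Erbb2 was 2-fold lower at 0.003% (median -0.71). The steps of Egfr between the treated arrays, -0.17 and 0.03, were within the spot error, but -0.52 and -0.61 with spike-in scaling. The other probe, with 10 spots an array, gave -1.0, -1.04 and -1.35 with spot errors of 0.07, and on it the 0.009% array was 0.32 ± 0.07 below the 0.006% array, a step of -0.05 with normexp. Before scaling its spots averaged 199.9 ± 8.37 (SD, n = 10 spots of 1 array) in the control, 92.7 ± 4.26 at 0.003%, 85.6 ± 5.02 at 0.006% and 52.8 ± 3.55 at 0.009%. No control spot overlapped with a spot of any treated array.

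Erbb2 encodes the partner receptor that has no ligand of its own and pairs with the other members. Its single probe was spotted 10 times, with means of 581.8 ± 20.8 (SD, n = 10 spots of 1 array) in the control, 374.5 ± 36.5 at 0.003%, 228 ± 14.3 at 0.006% and 128 ± 6.37 at 0.009%. The spots of the 4 arrays did not overlap. Relative to the 75th percentile, the log2 signal was 1.69, 1.15, 0.53 and 0.08, lower at each dose than at the dose before it. Erbb2 was 1.45-fold, 2.24-fold and 3.05-fold lower than the control (log2 -0.54, -1.16 and -1.61, spot error 0.06 to 0.07), the last at the 1.5 percentile of all features. Each step between doses exceeded the spot error under quantile, array median, spike-in and normexp values as well, where the difference at 0.009% was -1.58, -2.17, -2.78 and -1.35.

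Erbb3 encodes the neuregulin receptor that depends on a partner for kinase activity. Its signals were 2.07, 3.11, 2.54 and 3.12, not well above background on any array. Erbb4, the other neuregulin receptor, had a named probe and was not well above background on any array either. Neither receptor of Nrg1 was thus detected by these probes.

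The promoters of the receptors with lower signals are shown to set them beside that of Areg. They are the 250 bases before the start, from RefSeq on GRCr8, at chr14:95378376-95378625 (plus strand) for Egfr and chr10:83907351-83907600 (plus strand) for Erbb2, with motif matches in capitals.
Egfr: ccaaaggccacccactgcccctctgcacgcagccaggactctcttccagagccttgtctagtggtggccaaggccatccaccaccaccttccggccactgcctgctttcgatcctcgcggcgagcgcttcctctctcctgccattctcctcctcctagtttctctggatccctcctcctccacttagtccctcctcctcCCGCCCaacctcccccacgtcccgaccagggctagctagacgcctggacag
Erbb2: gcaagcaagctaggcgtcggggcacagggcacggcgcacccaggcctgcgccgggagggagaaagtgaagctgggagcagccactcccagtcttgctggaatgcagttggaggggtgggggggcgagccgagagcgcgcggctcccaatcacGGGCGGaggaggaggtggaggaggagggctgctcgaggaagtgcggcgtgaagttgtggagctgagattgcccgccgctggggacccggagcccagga
Each held a GC box and no other motif of those searched. Their GC content was 63.6 and 69.2%, that of the Areg window 54.4%, that of the Hbegf window 67.6%, and the median of all promoters 51.2%.

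The doses were also fitted together across all 23767 features well above background on at least 1 array, with limma and Benjamini-Hochberg adjustment. The mean of the 3 H2O2 arrays minus the control asks for a shift shared by the 3 doses, so a gene that differed at some doses only can be missed. Its residual is the spread between the doses, and the single control is assumed to vary like them. Of all features, 1.25% were called higher and 0.379% lower at an adjusted p under 0.05, and 13.4 and 11.2% at an unadjusted one. These p-values hold for these 4 samples only. They rest on the spread between the 3 H2O2 arrays, which limma draws toward that of all features, and on no spread between control cultures. Hbegf was called higher, by 2.42 ± 0.36 (SE, limma, adjusted p = 0.0486, higher in 3 of 3 arrays), a call that rests on 1 control array. The adjusted p of Hbegf ranged from 0.000153 to 0.130 over 8 alternatives, and it was not called with spike-in scaling (1.79, adjusted p = 0.130), where no feature was. The limma fit gave Areg 1.58 ± 0.31 (adjusted p = 0.0623), Ereg 1.64 ± 0.40 from values that include a floor in the control (adjusted p = 0.0822), Nrg1 1.74 ± 0.50 (adjusted p = 0.109) and Egfr -1.18 ± 0.29 (adjusted p = 0.0845), none of them called. Over the alternatives, the adjusted p of Areg ranged from 0.00217 to 0.353, that of Ereg from 0.0725 to 0.510, that of Nrg1 from 0.0182 to 0.534 and that of Egfr from 0.0147 to 0.166. Erbb2 (-1.10 ± 0.46, adjusted p = 0.214) and Tgfa (-0.63 ± 0.66, adjusted p = 0.548), which differed among the doses, were not called either.

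A straight line over the 4 doses was fitted with limma in the same way. It called 0 of 23767 features (0.0%), with 12.5% rising and 2.85% falling at an unadjusted p under 0.05. The slope per step of 0.003% was 0.84 ± 0.24 for Hbegf (adjusted p = 0.300), 0.53 ± 0.18 for Areg (adjusted p = 0.305), -0.53 ± 0.17 for Tgfa (adjusted p = 0.300) and -0.55 ± 0.11 for Erbb2 (adjusted p = 0.300), and these were the 4 of 8 members with an unadjusted p under 0.05. Without the control array the slope was 0.29 for Hbegf, 0.15 for Areg and -0.87 for Tgfa, and without the 0.009% array it was 1.28 for Hbegf and 0.86 for Areg. The slopes of Nrg1 and Ereg, highest at the lowest dose, were 0.29 ± 0.35 and 0.34 ± 0.30, and both turned negative with spike-in scaling. The adjusted p of every member tested was at least 0.0773 in each of the alternatives that kept all 4 arrays.

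**Figure D3:**
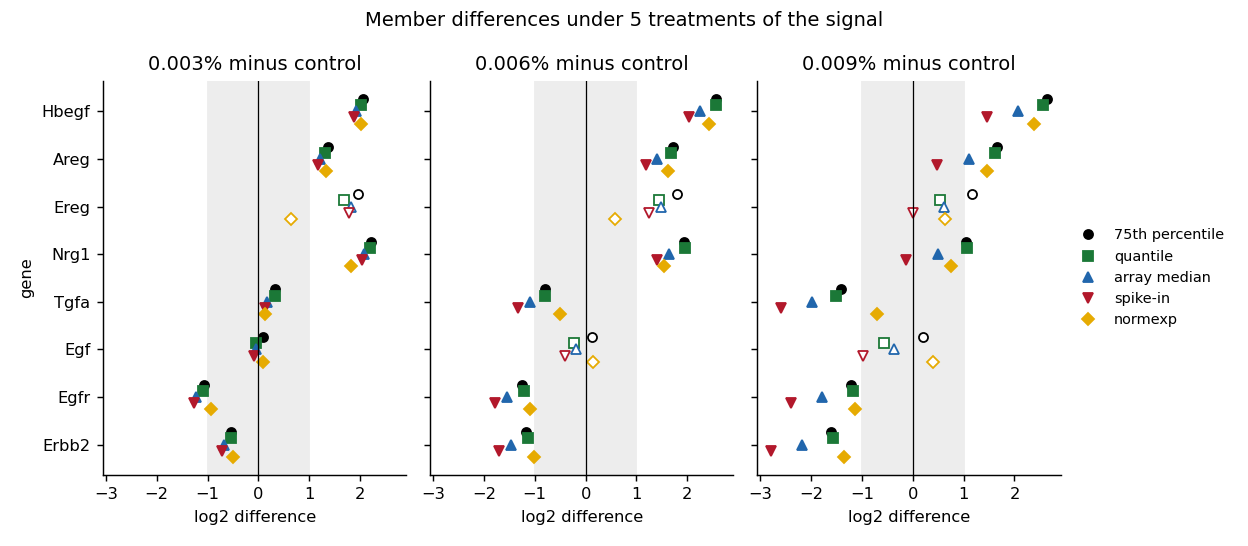
Log2 difference from the control (horizontal axis) at each H2O2 dose for the 8 genes compared (vertical axis), with the signal scaled to the 75th percentile, quantile normalized, scaled to the array median or to the spike-in probes, or corrected with normexp; the grey band is less than 2-fold, and open symbols have 1 side not well above background. Hbegf is at 1.46 or more under all 5, while Nrg1 and Ereg at 0.009% reach -0.12 and a lost bound with spike-in scaling.

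Other genes of the pathway were taken from lists set up by role. Among sheddases, which cut the ligands free, and their regulators, 5 of 12 were compared: none was at least 2-fold higher, and 2, 2 and 1 were at least 2-fold lower at the 3 doses, against 13.5, 10.5 and 7.52% of all features. With spike-in scaling 4 of the 5 were at least 2-fold lower at each dose, against 3960 of 22243, 5788 of 21991 and 11570 of 22810 features. With array median scaling 4, 3 and 3 were, against 3749, 4033 and 5176 features. Timp3, which inhibits these proteases, was at -2.12, -1.81 and -1.40, and the inactive rhomboid Rhbdf1, which guides Adam17 to the surface, at -0.93, -1.03 and -0.95. Adam9 was at -0.99, -0.86 and -0.71 and Adam15 at -1.06, -0.58 and 0.07, the last negative with quantile, array median, spike-in and normexp values. The limma fit of all H2O2 arrays called none of the 5, against 1.25% higher and 0.379% lower among all features. Timp3 was at an adjusted p of 0.0686 in that limma fit. Adam17, the main sheddase of Hbegf and Areg, was at 0.51, 0.45 and 0.28 and is named for its role, outside the rule and after its values were seen.

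Of the adaptors and signal relays, 24 of 32 were compared, and those past 2-fold were 1 above and 2 below the control at 0.003%, 1 and 1 at 0.006%, and 0 and 1 at 0.009%. The shares among all features were 15.2, 15.0 and 16.5% higher and 13.5, 10.5 and 7.52% lower. With spike-in scaling 13 of the 24 relays at 0.006% and 20 at 0.009% were at least 2-fold lower, against 5788 of 21991 and 11570 of 22810 features, and with array median scaling 11 at 0.009%, against 5176. Mapk3, which encodes a kinase of the ERK pathway, was at -1.22, -0.91 and -0.64. Pik3r2, a regulatory subunit of PI3-kinase, was at -0.99, -1.19 and -0.91 and phospholipase Plcg1, which binds the active receptor, at -0.87, -0.87 and -0.95. The limma fit of all H2O2 arrays called none of the 24, against 1.25% higher and 0.379% lower among all features.

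The negative regulators of the receptor and of ERK had 6 of 15, 5 of 14 and 5 of 14 compared genes at least 2-fold higher and 0, 0 and 1 lower, against 15.2, 15.0 and 16.5% higher and 13.5, 10.5 and 7.52% lower among all features. Of the 6, 1 was a bound at the 2-fold limit, from a gene detected on the 0.003% array alone. That gene could be counted there as higher but not as lower, and it was not compared at the other doses. With spike-in scaling the counts were 4 higher and 4 lower at 0.006%, against 1467 and 5788 of 21991 features. They were 2 and 6 at 0.009%, against 560 and 11570 of 22810 features. The list had medians of 0.43, 0.53 and 0.48, the last 2 negative with spike-in scaling and the last also with array median scaling. Dusp5, a nuclear ERK phosphatase, was at 2.44, 2.81 and 2.89 and was the only 1 of the 15 called by the limma fit (2.71 ± 0.33, adjusted p = 0.0422). That fit called 1.25% of all features higher and 0.379% lower. Errfi1, which binds and inhibits the EGFR kinase, was at 1.79, 2.23 and 2.38 (adjusted p = 0.0505, limma). Spred1, an inhibitor of RAS signalling, was at 2.14, 1.98 and 1.57 and the ERK phosphatase Dusp6 at 1.69, 1.68 and 1.23, falling to 0.05 with spike-in scaling.

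Of the genes known to be induced by EGF and ERK, 9, 11 and 11 of 15 were at least 2-fold higher at the 3 doses. None was 2-fold lower. Among all features 15.2, 15.0 and 16.5% were higher and 13.5, 10.5 and 7.52% lower. The list had medians of 1.28, 1.83 and 1.90. Ptgs2 is 1 of the higher genes at each dose. It was not detected in the control, so it could be counted as higher but not as lower. With spike-in scaling 7 were higher and 1 lower at 0.009%, with a median of 0.73. Of all 22810 features, 560 were higher and 11570 lower with that scaling and dose, with a median of -1.01. These genes also answer to stress of other kinds. The limma fit of all H2O2 arrays called 4 of the 15, all of them higher, against 1.25% higher and 0.379% lower among all features. Fosl1, an AP-1 subunit, was at 8.51 ± 0.35 (adjusted p = 0.00918, limma). Ptgs2, the inducible cyclooxygenase, was at 4.38 ± 0.36 from values that include a bound in the control (adjusted p = 0.0239, limma). The transcription factor Klf6 was at 2.96 ± 0.30 (adjusted p = 0.0311, limma) and Ier2 at 3.05 ± 0.41 (adjusted p = 0.0451, limma). Klf6 is named because it was called. Egr1, an immediate early transcription factor, was at 2.03, 3.17 and 4.03 (adjusted p = 0.0794, limma).

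**Figure D4:**
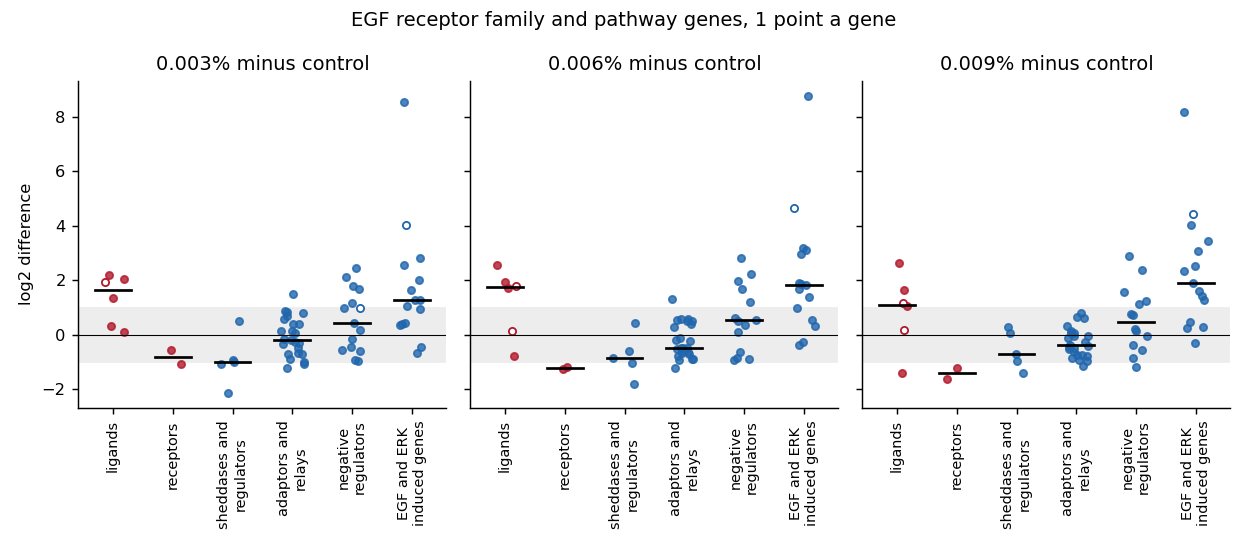
Log2 difference from the control (vertical axis) at each H2O2 dose for the EGF receptor family ligands and receptors (red) and for pathway genes grouped by role (blue), 1 point a gene, with open points where 1 side was not well above background, bars at the medians and a grey band for less than 2-fold. The EGF and ERK induced genes have medians of 1.28, 1.83 and 1.90, and the receptors lie below 0 at all 3 doses.

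The genes closest to each member were sought by the distance between their 3 differences from the control, among 4985 named genes well above background on all 4 arrays. Closest to Hbegf were Wsb1, Dll3 and Ccnl1 (distances 0.12, 0.22 and 0.23 on the log2 scale), and 13 genes lay within 0.5. Closest to Areg were Slc25a25, Lysmd3 and the transcription factor Cebpb, with 70 genes within 0.5, and closest to Nrg1 were Dusp13b, Wdr12 and the adaptor Crkl, with 55. Tgfa lay nearest to Ankrd9, Syt11 and Insig2, with 15 within 0.5, Egfr to Mfap3, Ankh and Elp2, with 148, and Erbb2 to Commd5, Pfkfb1 and Ankzf1, with 32. With 4 arrays, such a distance describes the pattern only.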

How the data were processed

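RNA of 4 NRK-52E cultures was measured on 4 Cy3 Agilent arrays, 1 per H2O2 dose. The authors' scanner software was Feature Extraction 10.7.3.1 by Agilent (protocol GE1_107_Sep09, design 014879, annotated on rn4), per the file headers, and the deposited spot signal is a linear intensity after background subtraction and detrending, not scaled across arrays. The deposited value table is a linear ratio of a probe's mean signal to the array median (100% of probes within 0.0001) and served as an alternative.

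Outlier spots were left out, log2 signals of a probe's spots were averaged, and each array's 75th percentile (log2, noncontrol spots) was subtracted. RefSeq accessions were matched to a rat gene table (GRCr8, used for names, gene order and promoter sequences), which named 10834 of 41007 probes. A gene took its brightest probe well above background on at least 1 array. A probe was well above background where more than 0.5 of its spots were. A side below that took the array's lowest signal passing this test, or its own value if higher, which makes the difference a bound. Features were compared where at least 1 of the 2 arrays was well above background.

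Both fits used limma 3.58.1 in R 4.3.3 (lmFit, eBayes, 2 residual degrees of freedom) and were tested on simulated data. The number of arrays limits the precision. Named genes were the members, the 4 genes of each pathway list with the largest mean difference, and the 3 nearest genes of each member at least 2-fold from the control. Some genes of these lists are not reported here. The members and lists were chosen with earlier results of these data known. Normexp used the median spot and background signals, in place of the mean spot signal planned.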

Additional observations from a re-analysis of the deposited data

How the results depend on the processing

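Of 18 member differences of at least 2-fold, all 18 kept their sign with array median scaling, quantile normalization, normexp, the deposited value table, outlier spots kept, no floor and the mean over a gene's probes, and 16, 17, 12, 16, 18, 18 and 17 stayed at least 2-fold. With spike-in scaling 16 kept their sign and 15 stayed 2-fold, and the exceptions in sign, both at 0.009%, were Nrg1 (-0.12) and the lost bound of Ereg (-0.0012). The number of members at least 2-fold from the control fell from 5 to 3 at 0.003% with normexp, and from 7 to 4 at 0.009% with normexp and with spike-in scaling. The 386 features called for the H2O2 arrays against the control became 1490 with array median scaling, 710 with quantile normalization, 0 with spike-in scaling (4722 at an unadjusted p under 0.05, limma), 2631 with normexp, 1489 with the deposited table, 999 among features well above background on all 4 arrays and 1689 with an intensity trend in eBayes. They became 640 to 6788 when an H2O2 array was left out, and the trend over dose, with 0 calls in all, had 139 to 8213 when an array was left out; these fits have 1 residual degree of freedom. Without the 0.006% array Hbegf remained called (adjusted p = 0.0169, limma). Slopes over dose that turned were those of Ereg (-0.053 with spike-in scaling, and from -0.39 without the control to 0.90 without 0.009% when an array was left out), Nrg1 (-0.10, and from -0.58 to 0.97) and Egf (-0.12 with array median, -0.19 with quantile, -0.33 with spike-in scaling and -0.13 with the deposited table). The mean difference of Egf turned to -0.20, -0.28, -0.49 and -0.19 under the same 4. Array median and spike-in scaling moved the median of all features at 0.009% from 0.16 to -0.40 and -1.01, and the split of 2-fold calls there from 3760 higher and 1715 lower to 1376 and 5176, and to 560 and 11570. The cause of these shifts was not tested. Naming probes by the array's own gene column was not run, as the column was not in the files used here. No paired analysis was possible because each dose had 1 array. Signals near background limit Ereg and Egf.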

Other observations

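The genes that flank the ligand cluster on chromosome 14 were looked up by position after the values of Areg and Ereg were seen. Before Btc lies Parm1, a membrane mucin-like protein gene, which was well above background on all 4 arrays and differed from the control by -0.21, 0.09 and 0.37 (spot error 0.20), within 2-fold at every dose. Its value at 0.009% was -0.81 with spike-in scaling. After Epgn lie Mthfd2l, which had no named probe, and Cxcl2, a chemokine that attracts neutrophils. Cxcl2 was not well above background in the control and was at least 2.33-fold higher at 0.003% and at least 2.71-fold higher at 0.009%, while at 0.006% it was not well above background either. With normexp these differences of Cxcl2 were 0.26 and 0.64, and with spike-in scaling they were 1.03 and 0.26. Cxcl2 could be counted as higher at these doses but not as lower. Of all features, 15.2 and 16.5% were at least 2-fold higher there.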
